A study of Mus musculus with 13 samples.

Results

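Imprinted genes are transcribed mainly from the copy inherited from 1 parent. The 39 imprinted genes described here were chosen by symbol. By textbook knowledge they fall into 19 loci, and 23 are paternally expressed, 15 are maternally expressed and 1, Gnas, gives transcripts from both parents. Of these, 35 had a row among the 25965 rows of the expression table, and 31 passed a filter on low values that left 13406 genes for testing. Rian, Mirg, Kcnq1ot1 and Peg13 were not analysed here, and Nap1l5, Slc22a18, Airn and Rasgrf1 had a row but were below the filter, which asked for a mean of 0 on the log2 CPM scale (CPM are reads scaled for library depth) in the 12 libraries of days 4 to 7.

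RNA-seq had been carried out on female mouse embryonic stem cells (mESCs) of an FVB/CAST F1 cross, in which each gene has 1 FVB and 1 CAST copy. Day0 was 1 library of undifferentiated cells without a hairpin. Cells expanded in 2i medium were then differentiated in DME HiHi medium, received a short hairpin RNA by virus on day 2, were selected with puromycin from day 3 and were harvested on days 4, 5, 6 and 7. Nons cells carried a nonsilencing hairpin, and Smarcc1.6 and Smarcc1.7 cells carried hairpins against Smarcc1, which encodes a core subunit of the BAF chromatin remodelling complex. There was 1 library for each group on each day, 13 in all, and the 4 days served as the replicates. Nothing in the labels says whether the days of a group came from separate transductions, so the p-values measure the spread between these libraries. Both hairpin libraries of a day were set against the same Nons library. Same-day pairs are thus not independent, and p-values of the fit of both hairpins can be too small. All values are total expression, with both alleles counted together. They do not show which parental copy was transcribed.

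In most imprinted clusters, imprinting is set by DNA methylation that 1 of the parental germ lines places on a control region. After fertilisation the mark is protected by factors such as ZFP57, TRIM28 and DNMT1, and it directs the expression of several neighbouring genes, often through a long noncoding RNA or through CTCF binding. Many imprinted genes control fetal growth, placenta or brain, and many are transcribed at low levels in undifferentiated stem cells. In bulk RNA, fewer cells of a type and less RNA per cell cannot be told apart.

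The shallowest library had 13993440 mapped reads and the deepest 63548092. The Day0 library and the 3 day 6 libraries stood apart, with 85.3% to 86.5% of mapped reads in genes against 91.6% to 92.6% in the others. Nap1l5 and Grb10 on day 6 lay at least 1 log2 unit above the mean of days 5 and 7 in all 3 groups. Igf2 lay at least 1 below it in all 3, which makes 3 of 35 members. Such shifts were not counted over all genes, so the 3 are only a description, and Nap1l5 was below the filter. Smarcc1 itself stood at a log2 CPM of 9.10, 8.87, 8.28 and 7.89 on days 4, 5, 6 and 7 in Nons. It stood at 7.42, 7.40, 7.28 and 7.28 in Smarcc1.6 and at 7.96, 7.78, 7.16 and 7.51 in Smarcc1.7. Smarcc1 was lower in 8 of 8 same-day pairs, by 1.06 ± 0.14 (SE) on the log2 scale over both hairpins (limma, adjusted p = 0.00232), and the smallest gap, on day 7 in Smarcc1.7, was -0.38.

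Sequences are shown for the promoters of Peg3, Ndn and Magel2, which were lower in the knockdown, of Meg3, which was lower with Smarcc1.6, and for microRNAs that lie inside members. RefSeq start sites on build GRCm38.p6 were found for 31 of the 39 members. Peg3 and Usp29 are divergent genes whose start sites, at chromosome 7 positions 6730419 and 6730583, are 163 bases apart. The stretch between them is read on the Peg3 strand (chr7:6730420-6730582, minus strand) and has a GC content of 62.0%. Ndn and Magel2, whose levels moved together, are neighbours on chromosome 7 and are shown with the 250 bases before each start site (chr7:62348027-62348276 and chr7:62376729-62376978, plus strand). The same stretch of Meg3, at chr12:109540746-109540995 on the plus strand, holds 1 match to the ZFP57 core, in capitals.
Peg3-Usp29: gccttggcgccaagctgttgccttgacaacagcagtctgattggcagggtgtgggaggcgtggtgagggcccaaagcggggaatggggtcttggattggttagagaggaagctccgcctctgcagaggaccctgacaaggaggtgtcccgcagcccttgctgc
Ndn: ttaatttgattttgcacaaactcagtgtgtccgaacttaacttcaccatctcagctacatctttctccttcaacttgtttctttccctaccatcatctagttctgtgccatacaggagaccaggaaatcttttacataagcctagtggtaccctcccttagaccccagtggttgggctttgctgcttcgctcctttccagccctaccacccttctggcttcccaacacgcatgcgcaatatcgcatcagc
Magel2: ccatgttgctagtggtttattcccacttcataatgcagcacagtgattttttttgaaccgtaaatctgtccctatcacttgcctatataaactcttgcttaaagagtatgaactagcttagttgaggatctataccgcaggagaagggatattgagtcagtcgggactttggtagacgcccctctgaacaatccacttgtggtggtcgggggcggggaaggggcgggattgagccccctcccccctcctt
Meg3: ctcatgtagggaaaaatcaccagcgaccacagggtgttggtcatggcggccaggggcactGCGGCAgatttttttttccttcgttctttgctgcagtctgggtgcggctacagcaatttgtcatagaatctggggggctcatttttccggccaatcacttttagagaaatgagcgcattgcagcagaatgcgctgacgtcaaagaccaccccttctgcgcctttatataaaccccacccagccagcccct

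The core hexamer of the imprint protector ZFP57, TGCCGC, was searched on both strands of each promoter from 250 bases before to 50 after the start, and so was GCCATNTT, a core of the zinc finger protein YY1. No member promoter held both. TGCCGC was present in 10 of the 48 promoters of members (20.8%, belonging to 9 genes) and in 11.6% of all 32851 promoters. The 2 promoters of Mest among the 10 nearly coincide. The promoters of all genes were not matched for base content, and the difference was not tested. Its matches were in promoters of Nnat, Mest, Nap1l5, Zim1, Snrpn, Igf2, Plagl1, Grb10 and Meg3. GCCATNTT was present in 2 member promoters, of Ube3a and Slc38a4 (4.17%), and in 6.05% of all. Neither set of letters was in the printed stretches of Peg3, Ndn and Magel2, which says only that they are not in these windows.

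Several members are also the hosts of microRNAs, short RNAs that pair with targets mainly through bases 2 to 8, the seed. Of 22 mature microRNAs of RefSeq inside member rows, 11 lay on the strand of the member that held them, namely H19, Igf2, Meg3, Mest and, for 2 of them, Rtl1, and no 2 of the 22 shared a seed. The microRNAs themselves were not measured in these libraries. The 9 on the strand of H19, Igf2, Meg3 and Mest are shown with the seed in capitals. The first 3 hosts rose with days, and Mest was among the more abundant members.
miR-675-5p (H19): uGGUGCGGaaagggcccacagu
miR-675-3p (H19): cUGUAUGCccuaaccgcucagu
miR-483-5p (Igf2): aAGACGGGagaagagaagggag
miR-483-3p (Igf2): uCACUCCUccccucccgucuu
miR-1906 (Meg3): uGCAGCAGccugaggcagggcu
miR-770-5p (Meg3): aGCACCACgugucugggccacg
miR-770-3p (Meg3): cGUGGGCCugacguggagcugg
miR-335-5p (Mest): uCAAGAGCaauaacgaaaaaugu
miR-335-3p (Mest): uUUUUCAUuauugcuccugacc

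The members covered nearly the whole range of expression. Per kilobase of exon, H19, Peg10, Snrpn and Peg3 were the highest members in Nons on day 7, at a log2 CPM per kilobase of 10.81, 9.62, 7.59 and 7.20. In the Day0 library the order was different, with Cd81 at 6.31, Slc38a4 at 6.14, Impact at 5.45 and Snrpn at 5.02. H19 was then in position 14 of 35 and Peg3 in position 16. Rasgrf1, a guanine nucleotide exchange factor of neurons, was the lowest member at both times. Each order rests on 1 library per time point.

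**Figure D1:**
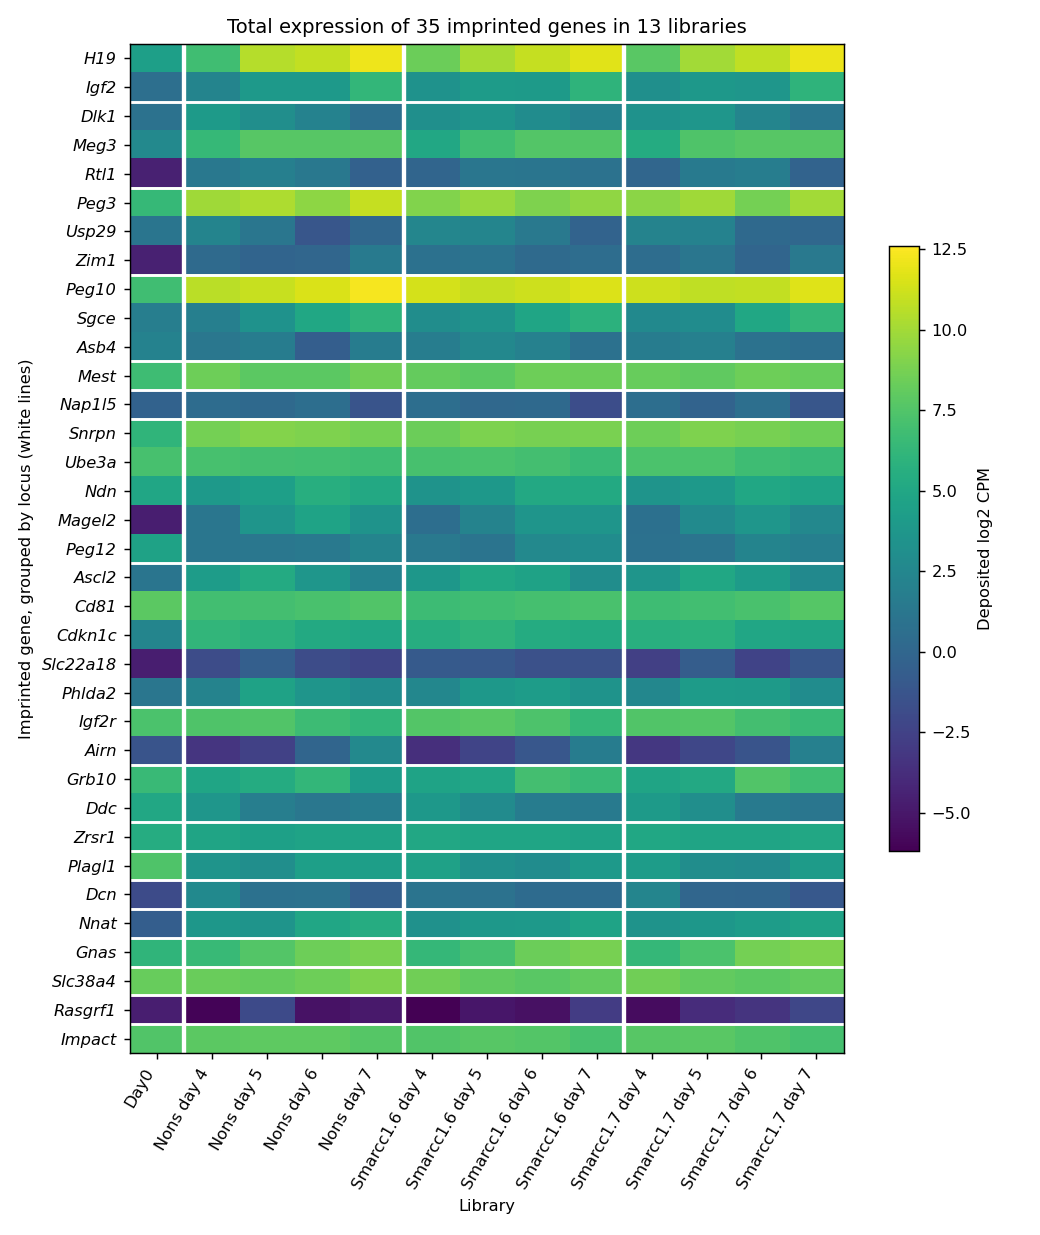
Deposited log2 CPM of the 35 imprinted genes with a row (vertical axis, grouped by locus between white lines) in the 13 libraries (horizontal axis). H19, Peg10 and Peg3 are the brightest rows after Day0, and Rasgrf1 and Slc22a18 are the darkest.

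Day0 was below every later library for 17 of the 31 tested members and above every later library for 5. Among all tested genes these shares were 24.2% and 18.6%. The filter used days 4 to 7 alone, so it could keep a gene that was low in Day0, and with 1 Day0 library and another medium the difference has no replicate check. The 17 were H19, Igf2, Meg3, Rtl1, Peg3, Zim1, Peg10, Sgce, Mest, Snrpn, Magel2, Ascl2, Cdkn1c, Phlda2, Dcn, Nnat and Gnas. The 5 were Cd81, a tetraspanin, Ddc, an amino acid decarboxylase, Peg12, the zinc finger regulator Plagl1 and the splicing factor retrogene Zrsr1. H19 was 210-fold higher in Nons on day 7 than in Day0, Nnat 65.9-fold, Igf2 48.0-fold, Peg10 45.7-fold, Meg3 35.4-fold and Peg3 23.3-fold. Magel2 had 0 reads in Day0 and 332 in Nons on day 7, which makes it at least 83.1-fold higher when 3 reads are taken as the floor. Plagl1 went the other way, from a log2 CPM of 7.41 in Day0 to 4.31 in Nons on day 7.

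The effect of the Smarcc1 hairpins on the level of imprinted genes was examined by setting both hairpins together against Nons, with day in the model. Lower in the knockdown were 4 of the 31 tested members, Peg3, Magel2, Ndn and Impact, and none was higher. Peg3, a zinc finger protein gene, was at 58.7% and Magel2 at 57.7% of Nons, whereas Ndn was at 75.4% and Impact at 77.9%. All 4 are known as paternally expressed. Of all 13406 tested genes 4.77% were lower and 6.88% higher (limma, Benjamini-Hochberg adjusted p under 0.05). In either direction 12.9% of members and 11.6% of all genes were called, which are close. By direction, 12.9% of members were lower against 4.77%, and 0 were higher against 6.88%. At an unadjusted p under 0.05 in limma there were 12 members, and 3770 of the 13406 tested genes. The median log2 change of the members was 0.01 against -0.01 over all genes, with 16 above 0 and 15 below.

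Peg3 stood at a log2 CPM of 9.94, 10.27, 9.42 and 10.94 on days 4 to 7 in Nons. The matching values were 9.02, 9.68, 8.94 and 9.45 in Smarcc1.6 and 9.32, 9.89, 8.70 and 9.98 in Smarcc1.7. Nons was the highest of the 3 groups on every day, although the ranges overlapped across days. The difference was -0.77 ± 0.13 (SE, adjusted p = 0.00504), and it was below 0 in 8 of 8 same-day pairs. The pairs of a day share their Nons library. Peg3 lies at chr7:6703892-6730421 on the minus strand (mm10).

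Impact, which encodes an inhibitor of the stress kinase GCN2 and lies on chromosome 18, stood at 7.90, 7.92, 7.94 and 7.68 in Nons. It stood at 7.52, 7.74, 7.59 and 7.11 in Smarcc1.6 and at 7.70, 7.80, 7.45 and 7.08 in Smarcc1.7. The change was -0.36 ± 0.07 (SE, adjusted p = 0.00815), with 8 of 8 pairs below 0, from -0.13 on day 5 to -0.60 on day 7, both in Smarcc1.7. All 8 same-day differences were below 0 in 7.10% of tested genes, and among members this held for Peg3 and Impact alone.

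Ndn, which encodes the MAGE family protein necdin, stood at 3.91, 4.41, 5.56 and 5.13 in Nons, 3.46, 3.82, 5.11 and 5.22 in Smarcc1.6 and 3.51, 3.95, 5.01 and 4.70 in Smarcc1.7. Its neighbour Magel2, of the same family and a regulator of ubiquitin ligases, stood at 1.18, 3.63, 4.74 and 3.48 in Nons. Magel2 was at 0.60, 2.19, 3.57 and 3.58 in Smarcc1.6 and at 0.73, 2.78, 3.68 and 2.61 in Smarcc1.7. Both genes were lower in 7 of 8 pairs, and the exception in both was Smarcc1.6 on day 7. The changes were -0.41 ± 0.10 for Ndn (adjusted p = 0.0252) and -0.79 ± 0.20 for Magel2 (adjusted p = 0.0266). Once day means were removed, the levels of this pair over the 12 libraries had a Pearson r of 0.96, given as a description since the libraries share days and depth. Snrpn, of the same cluster, had an r of 0.94 with Ndn when treated alike, so this was not particular to the neighbours.

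**Figure D2:**
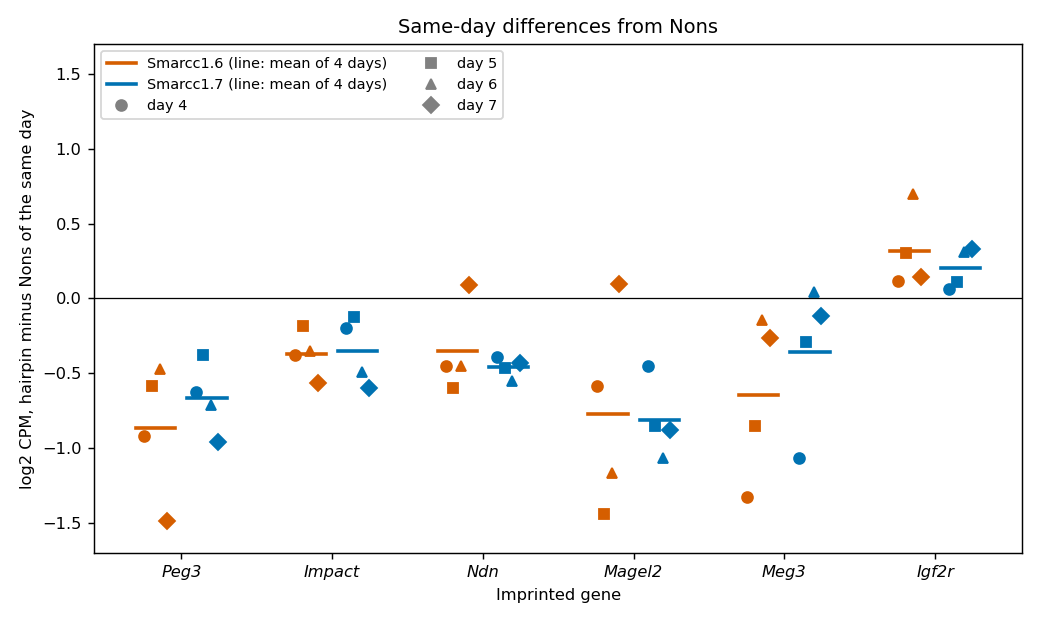
Difference in log2 CPM between each hairpin library and the Nons library of the same day (vertical axis) for the 5 members called in any comparison with Nons and for Igf2r, with symbols for days, colours for hairpins and a line at the mean of 4 days. All 8 points of Peg3 and Impact lie below 0 and all 8 of Igf2r above.

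The 4 calls differed in how they held over 16 fits, each without 1 of the 4 days or 1 of the 12 libraries. Peg3 was called in 16 of them, Impact in 15, Magel2 in 10 and Ndn in 9. Over all genes the fit of 12 libraries called 1561. Leaving out day 6, whose libraries had a lower share of reads in genes, left 287 genes and 1 of the 4 members, Peg3 (-0.83, adjusted p = 0.0299), with Impact at -0.34 (adjusted p = 0.0649), Ndn at -0.38 (0.152) and Magel2 at -0.69 (0.172). Leaving out day 5, whose libraries had no such lower share, left 386 genes and 3 members, Peg3, Impact and Nnat. Ndn was then at -0.37 (adjusted p = 0.141) and Magel2 at -0.68 (0.134). Without Nons on day 6 or without Smarcc1.7 on day 6 the members called were Peg3 and Impact, among 624 and 1119 genes. Without Nons on day 4 there were 8 members among 2003 genes, with Dlk1 (0.70), Igf2r (0.32), Peg10 (-0.46) and Slc38a4 (-0.33 with all libraries) added. With only 1 hairpin in the fit no member was called, among 57 genes for Smarcc1.6 and 0 for Smarcc1.7, and Peg3 had an adjusted p of 0.0745 with Smarcc1.6 and 0.0538 with Smarcc1.7.

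Fitted by hairpin with all 12 libraries, Smarcc1.6 had 3 members lower than Nons and none higher. These were Peg3 (-0.87 ± 0.14, adjusted p = 0.00612), Impact (-0.37 ± 0.08, adjusted p = 0.0207) and Meg3 (-0.65 ± 0.17, adjusted p = 0.0416). Over all genes 9.30% were called for Smarcc1.6. With Smarcc1.7 the one call was Peg3, at -0.67 ± 0.14 (adjusted p = 0.0391), and 2.45% of all genes were called. Both hairpins share the Nons libraries. Of the 16 fits without 1 day or library, 6 kept Meg3 and 9 kept Impact for Smarcc1.6, and 6 kept Peg3 for Smarcc1.7, while 16 kept Peg3 for Smarcc1.6. Meg3 was also lost with centred libraries and with voom. Without the variance trend Meg3 and Impact were lost for Smarcc1.6, and Peg3 for Smarcc1.7. For the difference between the hairpins 0 members and 0.00% of genes passed in limma, with 1 member and 530 genes at an unadjusted p under 0.05. Impact was at -0.35 with Smarcc1.7 (adjusted p = 0.0517), close to its value with the other hairpin.

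**Figure D3:**
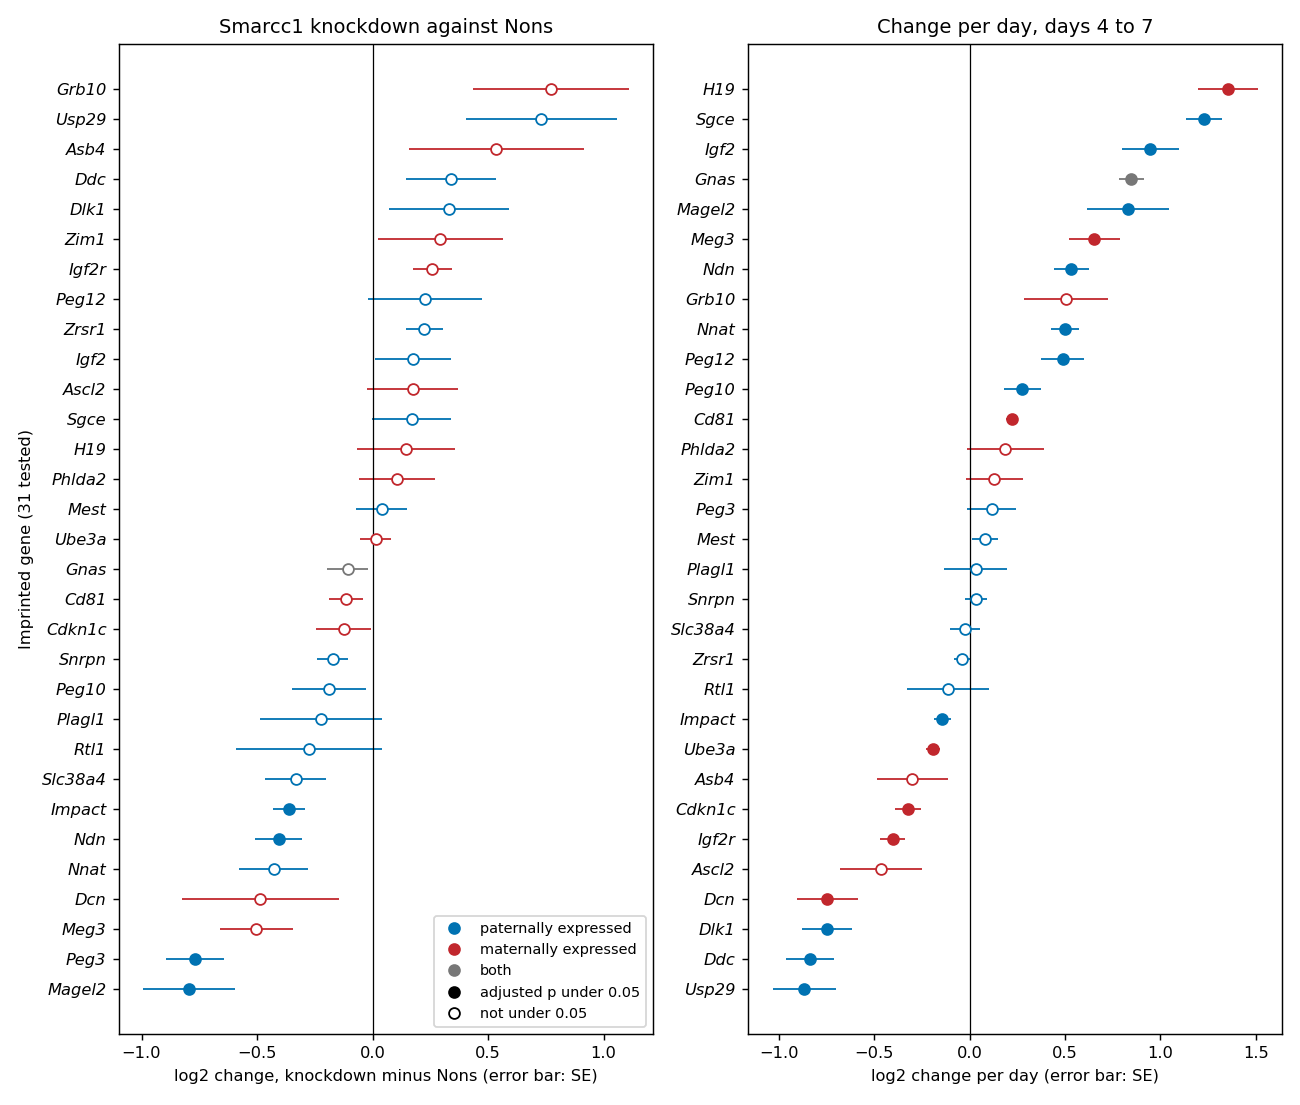
Fitted log2 change with its standard error for the 31 tested members (vertical axis, sorted), for knockdown minus Nons (left) and per day (right), coloured by the parental copy known to be expressed and filled where the adjusted p was under 0.05. On the left only 4 paternally expressed genes are filled, all below 0, and on the right 11 are filled above 0 and 8 below.

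By parental class, 10 of the 18 tested paternally expressed members were below 0 in the knockdown, with 4 called and a median of -0.18. Of the 12 maternally expressed members 8 were above 0, none was called and the median was 0.12. Over all tested genes 4.77% were called lower and 6.88% higher. Among the 4 called, Ndn and Magel2 are neighbours whose levels moved together. The difference between the classes was not tested. The classes follow textbook knowledge and not allele counts in these cells, and the maternal class includes Ube3a, whose imprinting is confined to neurons.

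The H19-Igf2 locus on chromosome 7 held the tested member with the largest slope, H19. H19, a long noncoding RNA transcribed from the maternal copy, stood at 6.85, 10.53, 10.86 and 12.11 on days 4 to 7 in Nons. It was at 8.39, 10.15, 10.92 and 11.79 in Smarcc1.6 and at 7.79, 9.99, 10.79 and 12.05 in Smarcc1.7. Igf2, a fetal growth factor transcribed from the paternal copy, followed at 2.30, 3.91, 4.00 and 6.28 in Nons, 3.41, 4.10, 4.04 and 6.05 in Smarcc1.6 and 3.17, 3.86, 3.71 and 6.04 in Smarcc1.7. The groups differed most on day 4, when Nons was the lowest for both genes, by 1.53 and 0.93 for H19 and by 1.11 and 0.87 for Igf2. From day 5 on the 6 differences ran from -0.54 to 0.06 for H19 and from -0.29 to 0.18 for Igf2. Over the 4 days the knockdown change was 0.14 ± 0.21 for H19 (adjusted p = 0.706) and 0.17 ± 0.17 for Igf2 (adjusted p = 0.534). Per day H19 rose by 1.35 ± 0.16 (adjusted p = 3.85e-05) and Igf2 by 0.95 ± 0.15 (adjusted p = 0.000294). The slope fits took the libraries of a day as separate points over only 4 days. Shifts shared by the libraries of a day can make the p-values of all slopes too small.

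**Figure D4:**
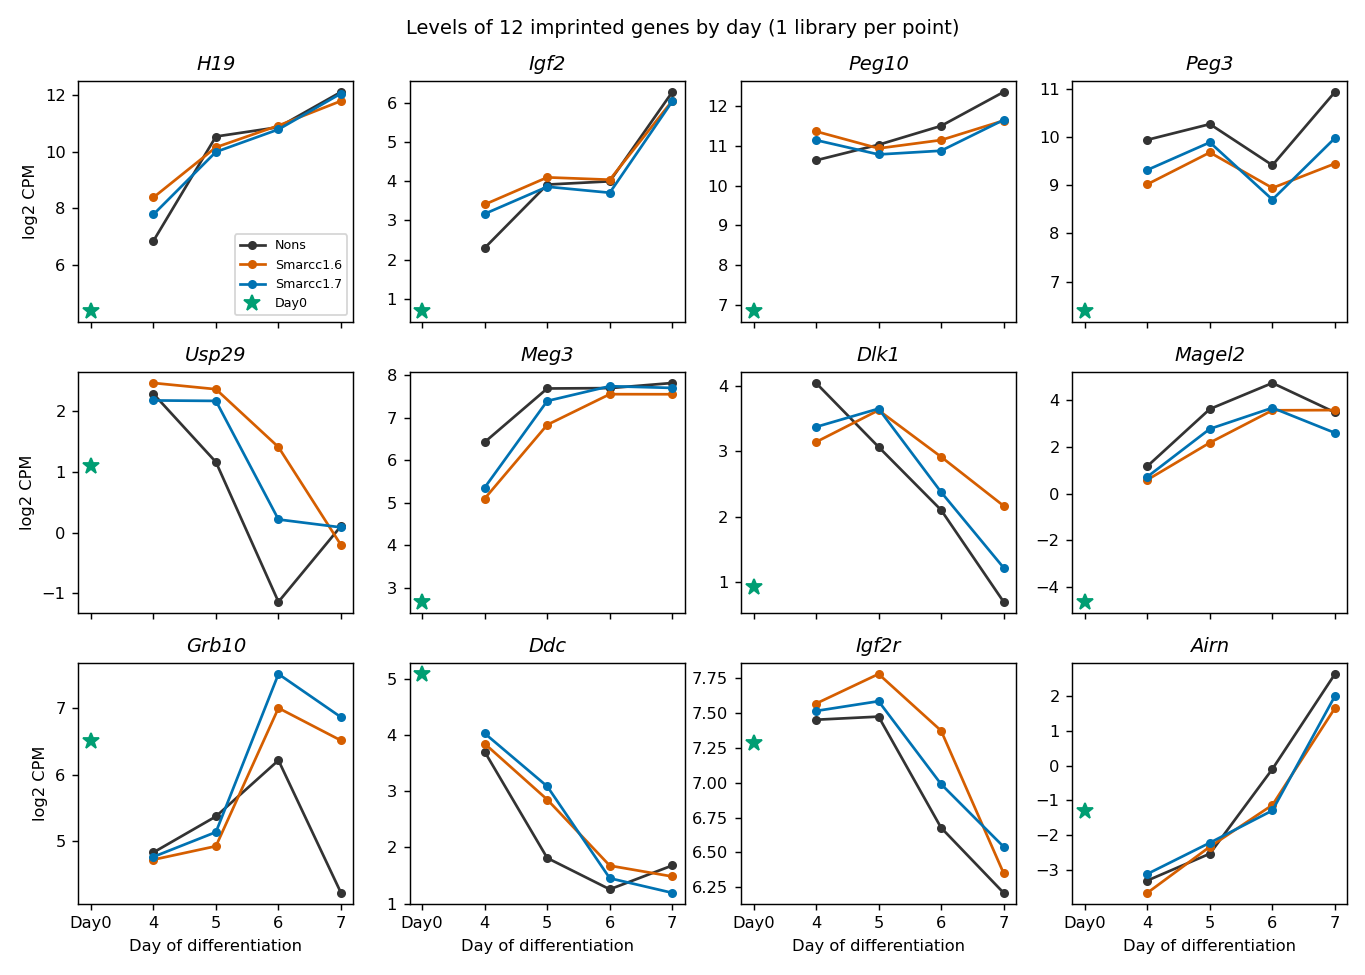
Log2 CPM (vertical axes, scaled for each gene) of 12 members in Nons, Smarcc1.6 and Smarcc1.7 on days 4 to 7, with Day0 as a star. Nons lies above both hairpins on every day for Peg3 and below them on every day for Igf2r, and for H19 Nons lies below both hairpins on day 4 and above both on day 5.

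In the Dlk1-Meg3 locus on chromosome 12, the maternally expressed long noncoding RNA Meg3 rose and the paternally expressed Dlk1, a transmembrane protein of the Notch ligand family, fell. Meg3 stood at 6.43, 7.69, 7.70 and 7.82 in Nons, 5.10, 6.83, 7.55 and 7.55 in Smarcc1.6 and 5.36, 7.39, 7.74 and 7.70 in Smarcc1.7. The gap to Nons was thus widest on day 4, at -1.33 and -1.07. Dlk1 went from 4.05 on day 4 to 3.07, 2.10 and 0.69 in Nons, from 3.14 to 3.63, 2.92 and 2.16 in Smarcc1.6 and from 3.37 to 3.65, 2.38 and 1.22 in Smarcc1.7. On day 4 Dlk1 was higher in Nons and on days 5 to 7 it was lower. Per day Meg3 rose by 0.65 ± 0.13 (adjusted p = 0.00164) and Dlk1 fell by 0.75 ± 0.13 on the log2 scale (adjusted p = 0.000638). Without day 4 the Meg3 slope was 0.19 (adjusted p = 0.0723). In the knockdown Meg3 was at -0.50 ± 0.16 (adjusted p = 0.0625) and Dlk1 at 0.33 ± 0.26 (adjusted p = 0.441). Rtl1, a retrotransposon-derived gene of the placenta, had 1 read in Day0 and lay between -0.37 and 1.93 in Nons.

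At the Peg3 locus the divergent neighbour Usp29, a ubiquitin protease, did not share the Peg3 pattern. It stood at 2.29, 1.16, -1.14 and 0.11 in Nons, 2.47, 2.36, 1.41 and -0.20 in Smarcc1.6 and 2.18, 2.17, 0.22 and 0.09 in Smarcc1.7. Nons was lower than both hairpins on days 5 and 6, and on days 4 and 7 the differences ran from -0.31 to 0.18. The knockdown change was 0.73 ± 0.33 (adjusted p = 0.168), while per day Usp29 fell by 0.87 ± 0.17 on the log2 scale (adjusted p = 0.00102). Its row covers only 2610 bases at the far end of the gene, and its smallest count was 16 reads. Zim1, the maternally expressed zinc finger gene of the locus, was at 0.29 (adjusted p = 0.523) in the knockdown.

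At the Peg10 locus on chromosome 6 the paternally expressed neighbours Sgce and Peg10 both rose with days, but the rise of Peg10 was lost in several alternatives. Peg10, a retrotransposon-derived gene needed for the placenta, stood at 10.64, 11.03, 11.51 and 12.36 in Nons, 11.37, 10.94, 11.15 and 11.64 in Smarcc1.6 and 11.15, 10.79, 10.88 and 11.66 in Smarcc1.7. Nons was the lowest group on day 4 and the highest on days 5, 6 and 7. Sgce, which encodes epsilon-sarcoglycan, stood at 1.90, 3.41, 4.99 and 6.05 in Nons, 2.98, 3.43, 4.84 and 5.88 in Smarcc1.6 and 2.70, 2.93, 5.03 and 6.25 in Smarcc1.7. Sgce rose by 1.23 ± 0.09 per day (adjusted p = 3.08e-06) and Peg10 by 0.28 ± 0.10 (adjusted p = 0.0305). The Peg10 slope did not pass with libraries centred on their autosomal median (0.19, adjusted p = 0.110), without day 7 (0.06, 0.655), without day 5 (0.25, 0.105), without Nons on day 4 (0.22, 0.115) or day 7 (0.18, 0.112), or without either hairpin's day 7 library (0.28, 0.0598 and 0.26, 0.0797). In the knockdown Peg10 was at -0.19 (adjusted p = 0.488) and Sgce at 0.17 (adjusted p = 0.565). Without Nons on day 4 Peg10 was at -0.46 (adjusted p = 0.0139). Asb4, the maternally expressed member, was at 0.54 ± 0.38 (adjusted p = 0.387).

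In the Snrpn cluster, the region of the Prader-Willi and Angelman syndromes, Snrpn was high and steady. The splicing factor gene stood at 8.70, 9.09, 8.96 and 8.70 in Nons, 8.40, 8.91, 8.77 and 8.84 in Smarcc1.6 and 8.44, 8.94, 8.75 and 8.47 in Smarcc1.7. It was below Nons in 7 of 8 pairs, with a change of -0.17 ± 0.07 (adjusted p = 0.116). This passed without day 7 (-0.21, adjusted p = 0.0189) and without Smarcc1.6 on day 7 (-0.22, 0.0125). Ndn rose by 0.53 ± 0.09 per day (adjusted p = 0.000458), Magel2 by 0.83 ± 0.21 (0.00650) and Peg12 by 0.49 ± 0.11 (0.00314). Without day 4 the Magel2 slope was 0.18 (adjusted p = 0.591). Ube3a, a ubiquitin ligase whose imprinting is confined to neurons, fell by 0.19 ± 0.04 per day on the log2 scale (adjusted p = 0.00101) and was at 0.01 in the knockdown. Snrpn shares exon bases with Snurf on the same strand, so the 2 cannot be told apart in these counts.

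In the Kcnq1ot1 cluster on chromosome 7 the maternally expressed members took separate courses. Cdkn1c, an inhibitor of cyclin-dependent kinases, stood at 6.14, 5.90, 5.20 and 4.91 in Nons, 5.51, 6.01, 5.34 and 5.19 in Smarcc1.6 and 5.69, 5.84, 4.95 and 4.76 in Smarcc1.7. It fell by 0.32 ± 0.07 per day on the log2 scale (adjusted p = 0.00211). Phlda2, a repressor of placental growth, stood at 2.20, 4.60, 3.63 and 2.95 in Nons, 2.50, 3.84, 4.20 and 3.43 in Smarcc1.6 and 2.50, 4.14, 4.04 and 2.93 in Smarcc1.7. Ascl2, a transcription factor of trophoblast, stood at 4.19, 5.27, 3.69 and 2.11 in Nons, 3.73, 5.02, 4.66 and 3.03 in Smarcc1.6 and 3.63, 4.99, 4.13 and 2.71 in Smarcc1.7. Ascl2 was highest on day 5 in all 3 groups, and Phlda2 was highest on day 5 or day 6. Neither slope passed (0.19 for Phlda2, adjusted p = 0.442, and -0.46 for Ascl2, adjusted p = 0.0843). The Ascl2 slope passed with centred libraries (-0.55, adjusted p = 0.0477), without day 4 (-1.24, 0.000351), without Smarcc1.6 on day 4 (-0.64, 0.0281) and without Smarcc1.7 on day 4 (-0.62, 0.0412). The Phlda2 slope was 0.78 without day 7 (adjusted p = 0.0266) and -0.54 without day 4 (0.0154). Knockdown changes were -0.13, 0.10 and 0.17 for Cdkn1c, Phlda2 and Ascl2, with adjusted p-values of 0.527, 0.723 and 0.610. On days 6 and 7 Ascl2 was higher than Nons in 4 of 4 pairs and on days 4 and 5 lower in 4 of 4. Cd81 rose by 0.22 ± 0.03 per day (adjusted p = 0.000113).

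Igf2r, the receptor that clears IGF2 to lysosomes and is maternally expressed, was the one member above Nons in all 8 same-day pairs, against 7.89% of tested genes. It stood at 7.45, 7.47, 6.68 and 6.21 in Nons, 7.57, 7.78, 7.37 and 6.35 in Smarcc1.6 and 7.51, 7.58, 6.99 and 6.54 in Smarcc1.7. The change of 0.26 ± 0.08 did not pass (adjusted p = 0.0687). Per day Igf2r fell by 0.40 ± 0.07 on the log2 scale (adjusted p = 0.000406). Airn, the paternally transcribed noncoding RNA that overlaps Igf2r on the opposite strand, stood at -3.31, -2.54, -0.09 and 2.65 in Nons, -3.67, -2.34, -1.13 and 1.66 in Smarcc1.6 and -3.12, -2.22, -1.29 and 2.01 in Smarcc1.7. Airn was below the filter and was not tested. Its count ran from 3 reads (Smarcc1.7, day 5) to 205 (Smarcc1.7, day 7). Airn was higher on day 7 than on day 4 in all 3 groups, while Igf2r was lower. Over 12 libraries their Pearson r was -0.93, and -0.59 once day means were removed, given as a description.

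Grb10, an adaptor of insulin receptor signalling that is maternally expressed outside the brain, had the largest single-day gap from Nons among the tested members, 2.65 on the log2 scale, just above that of Asb4 (2.62). It stood at 4.83, 5.37, 6.22 and 4.22 in Nons, 4.72, 4.92, 7.01 and 6.52 in Smarcc1.6 and 4.76, 5.14, 7.52 and 6.87 in Smarcc1.7. On days 4 and 5 it was slightly lower than Nons with both hairpins, on day 6 higher by 0.79 and 1.30, and on day 7 higher by 2.30 and 2.65. The change over all days was 0.77 ± 0.34 (adjusted p = 0.160), and without Nons on day 7 it was 0.20 (adjusted p = 0.581). The interaction of knockdown with day was 0.91 ± 0.39 per day, with an unadjusted p of 0.0454 and an adjusted p of 0.972. Its neighbour Ddc stood at 3.70, 1.81, 1.25 and 1.68 in Nons, 3.85, 2.85, 1.68 and 1.48 in Smarcc1.6 and 4.03, 3.09, 1.45 and 1.19 in Smarcc1.7. Ddc fell by 0.84 ± 0.13 per day on the log2 scale (adjusted p = 0.000219) and was at 0.34 (adjusted p = 0.283) in the knockdown.

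Among the loci with 1 member, Nnat and Gnas rose with days. Nnat, a small membrane protein gene of neurons and pancreas, stood at 3.74, 3.53, 4.96 and 5.47 in Nons, 3.33, 3.83, 4.00 and 4.73 in Smarcc1.6 and 3.47, 3.74, 4.22 and 4.64 in Smarcc1.7. It was lower than Nons with both hairpins on every day but day 5 (-0.43 ± 0.15, adjusted p = 0.0834). The Nnat change passed with voom (-0.53, adjusted p = 0.0313), without day 5 (-0.66, 0.0275) and without Nons on day 5 (-0.66, 0.0154). Gnas, which encodes the stimulatory G protein alpha subunit, stood at 6.50, 7.59, 8.46 and 8.78 in Nons, 6.36, 7.07, 8.40 and 8.72 in Smarcc1.6 and 6.34, 7.30, 8.65 and 8.98 in Smarcc1.7. The slopes were 0.50 ± 0.07 for Nnat (adjusted p = 0.000190) and 0.85 ± 0.06 for Gnas (adjusted p = 3.08e-06). Gnas shares exon bases with Nespas and Gm20721 on the opposite strand, and the strand setting of the counting was not stated. The same limit holds for Mest with Copg2, Cd81 with R74862 and Zrsr1 with Commd1.

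Mest, a hydrolase family gene of the mesoderm, stood at 8.44, 7.85, 7.89 and 8.55 in Nons, 8.14, 7.87, 8.48 and 8.36 in Smarcc1.6 and 8.20, 7.98, 8.48 and 8.27 in Smarcc1.7. Neither its slope (0.08, adjusted p = 0.344) nor its knockdown change (0.04, adjusted p = 0.853) passed. Plagl1, a zinc finger transcription factor, stood at 3.52, 3.11, 4.39 and 4.31 in Nons, 4.59, 3.23, 2.93 and 3.89 in Smarcc1.6 and 4.18, 3.04, 2.89 and 4.13 in Smarcc1.7. Both hairpins were above Nons on day 4 and below it on days 6 and 7, and the change over all days was -0.22 (adjusted p = 0.627). The 9 remaining tested members had knockdown changes from -0.49 (Dcn) to 0.54 (Asb4), with 5 above 0 and a smallest adjusted p of 0.0939.

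Across the loci, 19 of the 31 tested members changed with day, 11 upward and 8 downward, where 34.9% and 25.6% of all tested genes did (limma, group as covariate). Those that rose were H19, Sgce, Igf2, Gnas, Magel2, Meg3, Ndn, Nnat, Peg12, Peg10 and Cd81. The genes that fell were Usp29, Ddc, Dlk1, Dcn, Igf2r, Cdkn1c, Ube3a and Impact. Without day 7 the slope of Impact was -0.025 (adjusted p = 0.692) and that of Cdkn1c -0.31 (adjusted p = 0.0556). The median over members was 0.08 per day and over all genes 0.04. Of the paternally expressed members 7 rose and 4 fell, and of the maternally expressed members 3 rose and 4 fell. For the interaction of knockdown with day 0 members and 0.00% of genes passed in limma, with 3 members and 682 genes at an unadjusted p under 0.05.

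Of a further list of 42 imprinted genes, 38 had a row and 27 were tested. In the knockdown 1 was higher, Ppp1r9a (0.26 ± 0.08, adjusted p = 0.0468), which encodes a neuronal actin-binding protein, and none was lower. Over all genes 6.88% were higher and 4.77% lower. The median was 0.04. Fitted by hairpin, 0 of the 27 passed with either one. Per day 11 rose and 4 fell, where 34.9% and 25.6% of all genes did.

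Of 24 genes that set, keep or remove imprints, all were tested, 6 were higher in the knockdown and none lower (all genes, 6.88% and 4.77%). These were Ctcfl, a germline relative of CTCF (2.61 ± 0.46, adjusted p = 0.00660), Dppa3, which shields maternal methylation in the zygote (0.99 ± 0.17, 0.00624), and the DNA methylation cofactor Dnmt3l (0.93 ± 0.25, 0.0345). The others were the 5-methylcytosine oxidases Tet2 (0.82 ± 0.20, 0.0233) and Tet1 (0.30 ± 0.06, 0.0106) and the methyltransferase Dnmt3a (0.69 ± 0.18, 0.0344). Dnmt3a stood at 9.55, 8.69, 7.79 and 6.40 in Nons, 9.24, 9.58, 9.35 and 7.24 in Smarcc1.6 and 9.40, 9.41, 9.06 and 7.07 in Smarcc1.7. It was lower than Nons with both hairpins on day 4 and higher on days 5, 6 and 7. Fitted by hairpin, 4 of the 24 were higher with Smarcc1.6 and 1 was lower (Zfp445, -0.28, adjusted p = 0.0455). With Smarcc1.7, 2 were higher, Ctcfl and Dppa3, and none was lower. Over all genes 9.30% and 2.45% were called for these hairpins. The calls of these 24 genes were not refitted without a day or library. Over both hairpins Zfp57 was at 0.76 ± 0.25 (adjusted p = 0.0681), and Trim28, Dnmt1 and Ctcf lay at -0.0024, -0.10 and -0.05. Per day 18 of the 24 fell and 2 rose, where 25.6% and 34.9% of all genes did.

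Markers of cell types moved with both day and group. The 9 ES cell markers all had reads in every group and summed to a CPM of 6353 in Day0. On days 4 to 7 their sum was 2903, 2447, 2549 and 1798 in Nons, 4400, 3304, 2611 and 2360 in Smarcc1.6 and 3860, 2904, 2816 and 1899 in Smarcc1.7, above Nons on every day with both hairpins. In all 12 later libraries the sum was below that of Day0. The 6 mesoderm markers summed to 46.1, 36.2, 113 and 347 in Nons, 64.7, 23.0, 24.4 and 69.7 in Smarcc1.6 and 56.0, 23.0, 23.0 and 32.8 in Smarcc1.7, so that Nons was the lowest group on day 4 and the highest on days 5 to 7. The 11 mesenchyme markers ran from 30.6 to 1017 in Nons, from 41.9 to 1314 in Smarcc1.6 and from 32.7 to 1256 in Smarcc1.7. On day 6 they were higher in Nons (667, against 255 and 382). Sums ran from 43.8 to 272 in Nons, 91.3 to 246 in Smarcc1.6 and 68.8 to 212 in Smarcc1.7 for the 10 trophoblast markers, of which Prl3d1 had no read in any library and Tpbpa none outside Smarcc1.7. For the 12 endoderm markers they ran from 183 to 481, 207 to 621 and 195 to 637, and for the 6 neural progenitor markers from 68.6 to 332, 78.9 to 399 and 78.2 to 286. The part of these cell types in the levels of Peg3, Magel2, Ndn and Impact was not tested.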

How the data were processed

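The authors made paired-end TruSeq libraries, trimmed the reads, aligned them with tophat or hisat2 (the labels name TopHat2 2.0.12) to mm10 with strain variants masked, and counted reads per gene in Seqmonk. The deposited values are log2 CPM with both alleles together. Low values were whole reads within 0.05 in 100% of cases, with 0 reads written as 0.9 reads, which gave the depth.

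The genes averaging a log2 CPM of 0 or more in the 12 day 4 to 7 libraries were fitted with limma 3.58.1 in R 4.3.3 (lmFit, eBayes with trend, day as a factor), and p-values were adjusted over all 13406 genes by Benjamini-Hochberg at 0.05. The change per day had group as a covariate and day as a number, without a term for shifts shared by the libraries of a day. Day0 entered no test. Fits were tested on simulated data. Duplicated symbols (58) kept their rows. Strand, annotation release and which of tophat and hisat2 served each library are not given in the sources used here. Exon lengths came from GENCODE M21 on the same build and sequences from RefSeq.

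The members and lists were chosen with earlier results of these data known. Members were described library by library where called against Nons or where they were the best known pair of a locus. From other lists those called in knockdown were named, at most 6 each. A search for the genes most like H19 is not reported here. Alternatives were the filter, centring, no trend, voom with TMM on recovered reads, each day or library left out, no day block and single hairpins.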

Additional observations from a re-analysis of the deposited data

Results flagged for a closer look

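In 24 genes described library by library, 120 groups of 4 values (levels over the days of a group, and same-day differences of a hairpin from Nons) were examined for 1 value standing apart by Dixon's ratio. There were 5, where chance alone flags about 1 in 20 groups, and days also differ in stage. For levels these were Meg3 on day 4 in Nons (6.427) and in Smarcc1.7 (5.359), each below days 5 to 7, and Impact on day 7 in Nons (7.677), below days 4 to 6. For differences these were Sgce on day 4 in Smarcc1.6 (1.081 above Nons) and Smarcc1 on day 7 in Smarcc1.7 (-0.3806), the smallest reduction of that hairpin. No gene had opposite signs for the 2 hairpins on all days.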

How the results depend on the processing

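The count of members called in the knockdown (4) was 1 without day 6 and 8 without Nons on day 4, the extremes of leaving out a day or library, while the count over all genes (1561) was 287 and 2003. It was 0 with no replicate block for day (4 genes) and 0 with Smarcc1.6 alone (57 genes) or Smarcc1.7 alone (0 genes). For Smarcc1.6 (3) it was 1 to 7 on leaving out a day or library, 1 without the trend and 0 with no replicate block. For Smarcc1.7 (1) it was 0 to 4 on leaving out, 2 with no filter, 2 with voom, 0 without the trend and 0 with no replicate block. The cause of these changes was not tested. The changes per day (19) stayed between 16 and 21 and both counts of 0 stayed at 0. Of 988 member values recomputed, 928 kept direction and side, 40 were weaker, 19 stronger and 1 reversed, the Phlda2 slope (0.19), which ran from -0.54 without day 4 to 0.78 without day 7. Peg3 was called in the knockdown in every setting except no block and single hairpins. The autosomal median shifted by -0.018 with knockdown and 0.085 per day. Depth limits Airn, Rasgrf1, Slc22a18 and, in Nons on days 6 and 7, Ctcfl. With 1 library per group and day every test is limited.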
